A study of Homo sapiens with 6 samples.

Results

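The circular RNA (circRNA) repertoire of unexposed human bronchial cells was described from the 3 control libraries of a series of 6. The cells were BEAS-2B, an immortalised line derived from human bronchial epithelium, kept for 20 weeks in medium with 0.0 µM cadmium and subcultured every 3 days. Before strand-marking libraries were made, total RNA was depleted of ribosomal RNA and treated with RNase R, an exonuclease that degrades linear RNA and spares closed circles. The other 3 libraries came from cadmium-exposed cells and entered no comparison. All libraries labelled as control were taken, and of the 9857 circRNAs listed for the series 9764 had at least 1 junction read in a control library. The labels do not say whether the 3 libraries came from separate cultures, so the spread between them may be technical.

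A circRNA forms when a downstream splice donor is joined to an upstream splice acceptor of the same transcript, which leaves a covalent ring with no free end. The joint, known as the back-splice junction, is the only stretch that tells the ring from the linear transcript of its gene, the host gene. Many circles of protein-coding genes consist of a few internal exons flanked by long introns, and the absence of ends makes them resistant to exonucleases.

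The junctions below belong to the circles that lead the repertoire and to those whose reads depart most between libraries. Each line gives, 5′ to 3′ on the RNA strand and in DNA letters, the last 15 bases of the last exon in lower case and the first 15 bases of the first exon in capitals. They were read from GENCODE 29 transcripts, on GRCh38. The first 4 lines come from a single gene, MAN1A2, and show one acceptor joined to 4 different donors.
MAN1A2 exons 2 to 3, hsa_circ_0000116: cccctaacatatttgGGAAGAGGAAGAACG
MAN1A2 exons 2 to 4, hsa_circ_0000117: cttgatttcagtgtgGGAAGAGGAAGAACG
MAN1A2 exons 2 to 5, hsa_circ_0000118: ctatcaggagaggagGGAAGAGGAAGAACG
MAN1A2 exons 2 to 6, hsa_circ_0000119: ggtgaatttgaaaagGGAAGAGGAAGAACG
FAM13B exons 8 to 10, hsa_circ_0001535: gaagaaaatacccagCACCCATATATCTCC
PLOD2 exons 2 to 3, novel_circ_0026364: catgtttactgaatgATAAATTATTAGTCA
RSRC1 exons 2 to 3, hsa_circ_0001355: aagcagaacaagaagAAATGGGACGTCGGT
CAMSAP1 exons 2 to 3, hsa_circ_0001900: ttctggatcaacaagATAACATCCCTGAGG
CDYL exon 2, hsa_circ_0008285: ctgttaacgggaaagGTTGAAAGGATTGTT
SMARCA5 exons 15 to 16, hsa_circ_0001445: agagaaaaacaaaagGGAGGCTTGTGGATC
HIPK3 exon 2, hsa_circ_0000284: atctcggtactacagGTATGGCCTCACAAG
FAT1 exon 2, hsa_circ_0001461: taggtgaagagacagATTCCCGACAGTTAA
BACH1 exons 2 to 4, hsa_circ_0001181: gaaattgagaagctgGTTGATGATAATTAG
On GRCh38 the largest of these MAN1A2 circles by reads spans chr1:117402186-117420649 on the plus strand, the FAM13B circle chr5:137985257-137988315 on the minus strand, and the PLOD2 circle chr3:146121112-146124229 on the minus strand. The RSRC1 circle spans chr3:158122103-158123991 on the plus strand and holds the start codon. By their GENCODE exons alone, the FAM13B and PLOD2 circles lie within coding sequence.

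The control libraries held 225769, 137919 and 165352 junction reads, with 9449, 8973 and 9106 circRNAs above 0. Of these circRNAs 8346 were above 0 in all 3 libraries and carried 97.0% ± 0.688 of the junction reads (mean ± SD over 3 libraries, as throughout). A further 1072 were above 0 in 2 libraries and 346 in 1, while 93 listed circRNAs had no control read. Most circles were rare: the median read number of a circRNA above 0 was 10, 7 and 7. Levels below are junction reads per 1000000 junction reads of the library (CPM), with no length term, since each circle is counted at its single junction.

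No circle held a large part of the repertoire. The 10 most abundant circRNAs took 5.57% ± 0.229 of reads, the 100 most abundant 21.0% ± 0.752 and the 1000 most abundant 55.3% ± 0.474. It took 734, 760 and 723 circRNAs to reach 50% of reads. Exonic circles carried 96.3% ± 0.0490 of reads, circles classed as intronic 3.15% ± 0.0840 and intergenic circles 0.530% ± 0.0576. Circles with an hsa_circ catalogue identifier held 85.5% ± 0.423 of reads.

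The single most abundant circle came from FAM13B. It had 1941, 1216 and 1381 reads, which is 8597, 8817 and 8352 CPM, so the 3 libraries stood within a coefficient of variation (CV, SD over mean) of 2.71%. The circle of PLOD2, a lysyl hydroxylase of collagen, followed with 1897, 1008 and 1468 reads, or 8402, 7309 and 8878 CPM. Its values overlapped those of FAM13B, so the order of these leading circles did not exceed their spread. Among the 12 most abundant circles it was the only one without a catalogue identifier. Its deposited spliced length is 484 bases, whereas exons 2 and 3 of the GENCODE transcript sum to 229.

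The circle of RSRC1, an arginine- and serine-rich protein with a part in splicing, had 7211, 6707 and 7312 CPM. CAMSAP1, which binds microtubule minus ends, gave a circle at 5891, 5119 and 6671 CPM, and the single-exon circle of CDYL, a chromodomain corepressor, stood at 6325, 5706 and 5534 CPM. The lowest RSRC1 value was above the highest of CDYL, while the CAMSAP1 and CDYL ranges overlapped. The leading circle of MAN1A2, a Golgi mannosidase that trims N-glycans, had 5072, 5097 and 4530 CPM. ATXN2, an RNA-binding polyglutamine protein, gave a circle of exons 2 to 5 at 4730, 4075 and 4856 CPM. The rest of the 12 were circles of ZDBF2, XPO1, SMARCA5 and RARS and the second circle of MAN1A2, with mean values from 3095 to 3591 CPM. Of these, XPO1 had the smallest spread, with 3521, 3604 and 3508 CPM. The order of circles takes each listed 0 as read. The HIPK3 circle, at 5107, 0 and 3248 CPM, ranked 18 for that reason, and the leading 12 depend on it.

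Reads were spread over 3720 host genes, counting only circles assigned to 1 gene. Of the hosts 3636 were protein-coding, with a median gene length of 73.5 kb against 27.1 kb for all 19951 protein-coding genes of GENCODE 29, and a median of 14 exons against 8. The 20 leading hosts held 11.8% ± 0.224 of reads, and 50% of single-host reads lay in 295, 301 and 300 hosts. MAN1A2 led with 2783, 1775 and 1880 reads from 9 circles, a share of 1.23%, 1.29% and 1.14%. FAM13B followed with 1.01%, 1.06% and 0.986%, and PLOD2 with 0.902%, 0.805% and 0.942%. These hosts and RSRC1, at 0.736%, 0.689% and 0.743%, did not overlap from one to the next.

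**Figure D1:**
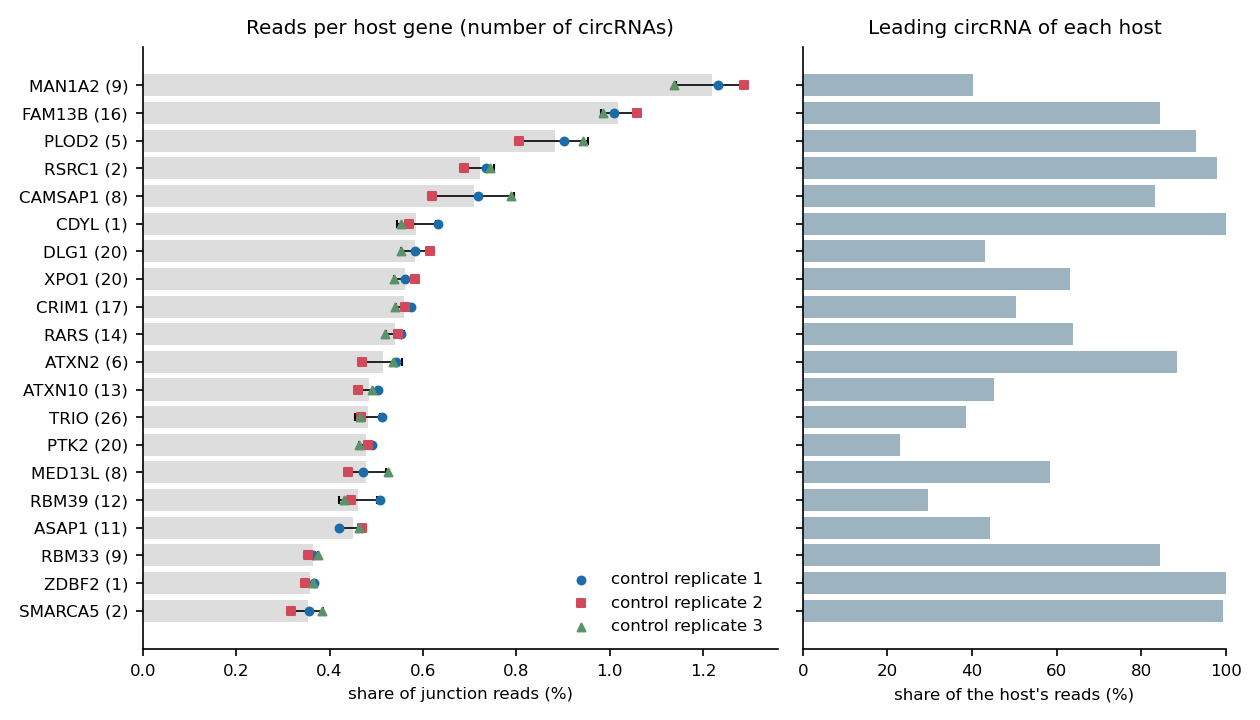
Left: share of junction reads (%) of the 20 leading host genes, with the number of circRNAs of each in brackets; bars are means, whiskers SD and points the 3 control libraries. Right: share (%) of the host's reads in its most abundant circRNA. MAN1A2 leads with 1.22% of reads but only 40.2% of them in a single circle, whereas CDYL and ZDBF2 have 1 circle each.

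Below RSRC1 the order was loose. Of the 19 pairs of neighbours among the 20 leading hosts, 15 overlapped in their 3 values. The hosts from CAMSAP1 to ASAP1 ran from a mean of 0.709% down to 0.451%. They included DLG1, a polarity scaffold (0.583% ± 0.0310), XPO1, the nuclear export receptor (0.561% ± 0.0220), and CRIM1, a transmembrane protein that binds bone morphogenetic proteins (0.559% ± 0.0173). RARS, the cytoplasmic arginyl-tRNA synthetase, held 0.540% ± 0.0189. ATXN2 held 0.515% ± 0.0396 and ATXN10 0.485% ± 0.0219. TRIO, PTK2, the focal adhesion kinase, and MED13L, a subunit of the Mediator kinase module, stood at 0.481%, 0.479% and 0.478%. The splicing factor RBM39 held 0.462% and the Arf GTPase-activating protein ASAP1 0.451%. A gap without overlap separated ASAP1 from RBM33 (0.364%), which was followed by the imprinted zinc finger gene ZDBF2 (0.359%) and by SMARCA5, the ATPase of ISWI chromatin remodellers (0.353%). HIPK3, at 0.515%, 0.00870% and 0.328%, ranked 31 as a host with the 0 of its main circle in replicate 2 counted.

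Hosts differed widely in how many circles they made. A single circle was found for 1698 hosts, 45.6% of all, and these carried 13.8% ± 0.320 of reads. Hosts with 5 to 9 circles were 407 in number and carried 29.1% ± 0.270, and the 87 hosts with 10 or more carried 14.8% ± 0.558. The mean was 2.54 circles per host. The number of circles rose with a host's reads (Spearman 0.74 over 3720 hosts) more closely than with its exon number (0.31) or gene length (0.29). These coefficients describe hosts of the same libraries, and a deeper-read host has more chance of a further circle being counted.

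TRIO had the most circles, 26, of which 24 were above 0 in every library. BIRC6, a giant ubiquitin ligase of the inhibitor-of-apoptosis family, had 22, and DLG1, XPO1, PTK2 and the ubiquitin ligase TRIM37 had 20 each. SMARCC1, a core subunit of SWI/SNF remodellers, had 19 and C5orf42, a ciliary gene, 18. All 20 PTK2 circles were above 0 in every library, against 15 of 20 for XPO1 and 15 of 22 for BIRC6. The reads behind these numbers were unequal: XPO1 had 1267, 803 and 890 reads, whereas TRIM37 had 260, 133 and 207 and BIRC6 296, 183 and 195.

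The leading circle held a large part of its host's reads, less so in hosts with many circles. Among the 1145 hosts with 2 or more circles and a mean of 30 or more reads, the most abundant circle held a median of 55.1% of the host's reads (quartiles 41.6% and 74.3%), and over 50% in 676 hosts. The leader of 2 circles holds at least 50% by arithmetic, and 218 of 219 such hosts were over 50%. The number was 307 of 441 hosts with 3 or 4 circles and 139 of 398 with 5 to 9. It was 12 of 87 with 10 or more. The median fell with the number of circles, from 84.5% with 2 to 60.1% with 3 or 4, 44.0% with 5 to 9 and 33.6% with 10 or more. The even share for the last class would be 8.33% at its median number of circles. The same circle led in all 3 libraries in 873 of the 1145 hosts, or 76.2%. Ties within a library went to the circle listed first, here and below, so some changes of leader may rest on ties or on a few reads.

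**Figure D2:**
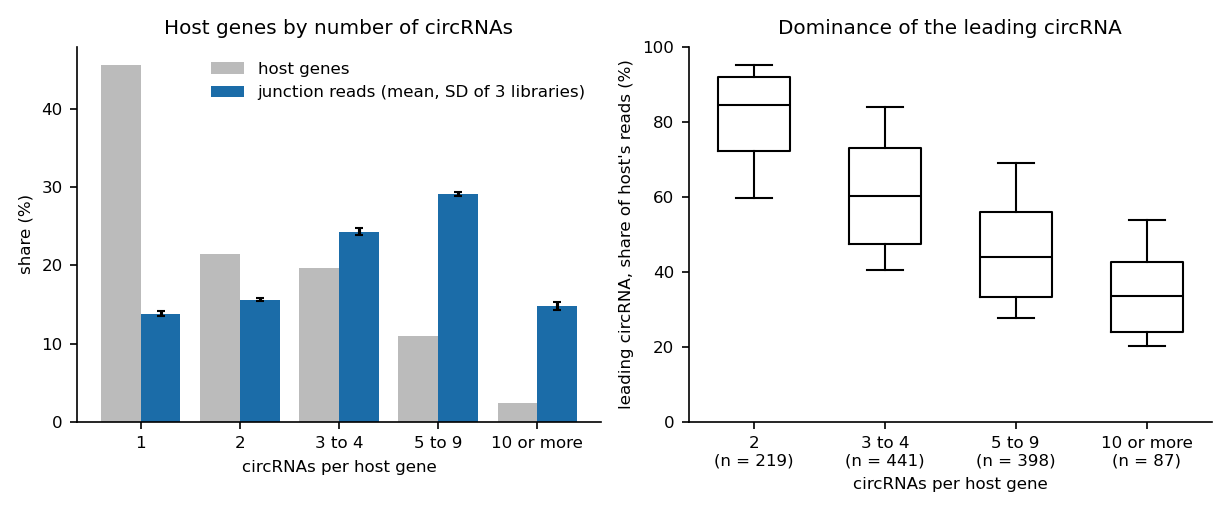
Left: share (%) of the 3720 host genes and of junction reads (mean, SD of 3 libraries) by number of circRNAs per host. Right: share (%) of a host's reads in its most abundant circRNA for 1145 hosts with a mean of 30 or more reads; boxes are quartiles with the median, whiskers the 10th and 90th percentiles. The median falls from 84.5% with 2 circRNAs to 33.6% with 10 or more.

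Dominance was strongest in RHOBTB3 among the 49 hosts with 5 or more circles and a mean of 300 or more reads. Its exon 6 to 7 circle held 94.6%, 94.5% and 95.8% of the host's reads. PLOD2 followed with 93.2%, 90.8% and 94.2%, then the long noncoding RNA gene PVT1 (89.7%), ATXN2 (88.3%) and UIMC1, a ubiquitin-binding protein of the BRCA1-A complex (86.6%). FAM13B combined 16 circles with 84.4% in its leading circle. Its second circle, of exons 2 to 7, had 71, 49 and 29 reads beside 1941, 1216 and 1381.

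PTK2 lay at the other end, with 22.9%, 22.1% and 23.7% in its leading circle of exons 3 to 5 (254, 147 and 181 reads). Its next circle, of exons 3 to 7, started at the same exon and had 208, 129 and 123 reads. MPP6, a membrane-associated guanylate kinase (23.3%), the proteasome shuttle factor UBQLN1 (23.5%), RBM39 (29.6%) and SPIDR, a DNA repair scaffold (29.9%), completed the 5 most even hosts. The low values were seen in each of the 3 PTK2 libraries, whereas MPP6 varied from 16.6% to 30.7%.

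The leading circle changed between libraries in 52 of the 371 hosts with 2 or more circles and a mean of 100 or more reads. In RBM39 the circle of exons 7 to 11 had 328, 204 and 193 reads and that of exons 4 to 6 had 324, 166 and 200, so the lead passed to the second in replicate 3. In MPP6 the circle of exons 3 to 6 had 136, 78 and 96 reads and that of exons 3 to 10 had 108, 112 and 62. The longer circle led in replicate 2 alone. UBQLN1 changed on 67 against 68 reads in replicate 2. In FNDC3B, a fibronectin type III domain protein, 2 circles had 173, 179 and 125 reads and 157, 109 and 136 reads. HIPK3 changed because its main circle was listed at 0 in replicate 2.

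Leading circles also differed in form from the others of their hosts. Exon 2 was the first exon of 33.6% of 1091 leading circles and of 22.0% of 4066 others. The leading circles had a median GENCODE spliced length of 384 bases against 463, and a median upstream intron of 9.08 kb against 6.58 kb. A catalogue identifier was held by 93.3% against 69.0%. These are descriptions of the same hosts, with no test.

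Circles of one host often shared a splice site. Of 7758 circRNAs from hosts with 2 or more, 47.0% shared their first base with another circle of the host, 41.8% their last base and 72.6% either. MIB1, a ubiquitin ligase for Notch ligands, and PICALM, a clathrin assembly protein, each had 8 circles that began at exon 2. RARS had 7 from its exon 2, led by the circles ending at exon 5 (822, 470 and 547 reads), exon 7 (216, 127 and 135) and exon 3 (105, 69 and 110). On the donor side, 8 TRIO circles ended at exon 11. These included exons 9 to 11 (443, 231 and 319 reads), exons 5 to 11 (161, 103 and 83) and exons 10 to 11 (84, 45 and 63).

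MAN1A2 showed the same arrangement with large read numbers. Its 5 most abundant circles all began at exon 2, the capitals shared by the 4 MAN1A2 lines above. The circle of exons 2 to 5 held 40.2% of the host's reads, that of exons 2 to 4 held 25.4%, exons 2 to 3 held 18.6% and exons 2 to 6 held 13.5%. Their reads were 1145, 703 and 749, then 697, 447 and 489, then 518, 305 and 377, then 357, 271 and 228. The order of the 4 was the same in each library, and the leading share moved only between 39.6% and 41.1%.

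Where circles begin was uneven along the transcripts. A GENCODE 29 transcript with both ends on exon bounds was found for 8826 of the 9310 exonic circRNAs. Exon 2 was the first exon of 27.8% of these circles and of 38.2% ± 0.454 of their reads, whereas exon 2 makes up 6.84% of the 52911 internal exons of the 3620 host transcripts. Exon 1 was first in only 21 circles, and the last exon of the transcript was included in 6. Of the 12 most abundant circles 9 began at exon 2, including PLOD2, RSRC1, CAMSAP1, CDYL, ATXN2, ZDBF2 and RARS. FAM13B (exon 8), XPO1 (exon 3) and SMARCA5 (exon 15) did not.

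Introns beside the circles were long, with no test made. The upstream intron had a median of 6496 bases and the downstream one 5866.5, against 2039 and 1912 bases beside all internal exons of the host transcripts. The 100 most abundant circles had medians of 11040.5 and 13304 bases. Circles from exon 2 had upstream and downstream medians of 14728 and 7350 bases, against 7813 and 3775.5 for all second exons. Circles from later exons had 4869.5 and 5268 bases, against 1915 and 1840. CDYL had 114905 bases upstream and 43135 downstream of its circular exon, and RSRC1 had 11891 and 79080. The downstream intron was short for RARS, at 664 bases, and for SMARCA5, at 764, with 2058 and 3013 bases upstream.

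**Figure D3:**
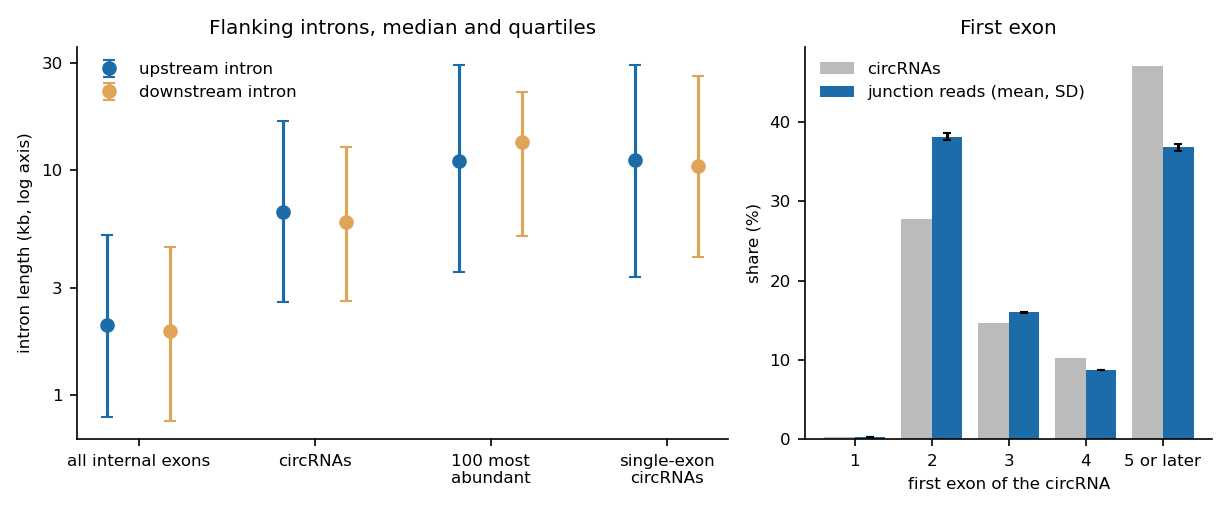
Left: length (kb, log axis) of the introns upstream and downstream of all internal exons of the host transcripts, of the circRNAs, of the 100 most abundant and of single-exon circRNAs; points are medians and bars quartiles. Right: share (%) of circRNAs and of junction reads (mean, SD of 3 libraries) by first exon. The median upstream intron is 2039 bases for internal exons and 6496 for circRNAs, and exon 2 starts 27.8% of circRNAs and 38.2% of reads.

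Most circles were short. Shares of reads by form are of the 8826 circles with a transcript, and spliced lengths are those of the GENCODE transcript. Those of 2 or 3 exons carried 30.1% ± 1.29 and 29.6% ± 0.681 of reads, and those with a spliced length over 200 to 400 bases carried 50.6% ± 2.38. A single exon made up 295 circles with 5.24% ± 0.199 of reads, led by CDYL and HIPK3. By their GENCODE exons, coding sequence alone filled 82.7% of circles, and the start codon lay in 13.1% of circles and 18.6% ± 0.334 of reads. Circles with the start codon included those of RSRC1, ZDBF2, XPO1 and HIPK3. Among 380 circles classed as intronic, 15 had both ends on annotated exon bounds, and these held 19.3% ± 1.0 of intronic reads. In 310 of them 1 end lay on an exon bound, with 67.4% ± 0.948 of intronic reads. Neither end did in 55, with 13.3% ± 0.295. The leading MED13L circle, with 611, 371 and 491 reads, was classed as intronic.

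The files also list non-junction reads for each circle and library. How these were counted is not given. They are not all the reads of the stretch a circle spans, since the MAN1A2 circle of exons 2 to 8 lists 59, 73 and 41 and the circle of exons 2 to 3 inside it lists 1949, 1427 and 1310. The junction share used here is 2 × junction reads over 2 × junction reads plus non-junction reads. The RNA had been treated with RNase R, so this share does not measure the circular part of a gene's RNA in the cells. Among 3677 circRNAs above 0 in every library with a mean of 10 or more junction reads, the median junction share was 65.9%, 46.5% and 68.6%. Replicate 2 was the lowest library for 3050 of them, 82.9%. Summed over the 8346 circRNAs above 0 in every library, non-junction reads were 591869, 779462 and 387161, so replicate 2 had the most of these and the fewest junction reads. Whether circles that share a splice site share non-junction reads in these sums was not tested.

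The junction share kept its order between circles across libraries, with Spearman coefficients of 0.84, 0.89 and 0.82 for the pairs 1 and 2, 1 and 3, and 2 and 3 over these circRNAs. Its median rose with abundance, from 52.5% (mean over libraries) at 10 to under 30 reads to 71.8% at 30 to under 100, 84.6% at 100 to under 300 and 91.3% at 300 or more. Junction reads enter both measures, so a rise follows in part from the arithmetic. Circles from exon 2 had medians of 70.2%, 50.6% and 72.3%, and those from later exons 62.8%, 42.9% and 65.0%. The exon 2 value was thus the higher in each library. Circles from exon 2 were also more abundant, with a median of 50.9 CPM over all circles with a transcript. Those from exon 3, exon 4 and exon 5 or later had 46.5, 40.3 and 37.9 CPM. Whether abundance accounts for the difference was not tested.

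**Figure D4:**
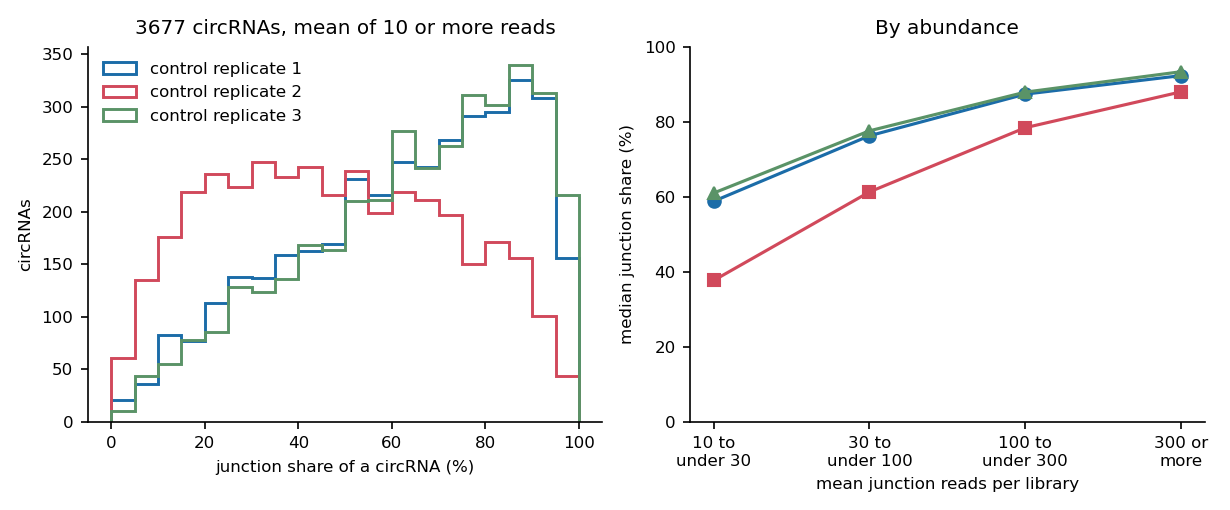
Left: number of circRNAs by junction share (%) in each control library, for 3677 circRNAs with a mean of 10 or more junction reads. Right: median junction share (%) by mean junction reads per library. Replicate 2 lies lower throughout, with a median of 46.5% against 65.9% and 68.6%.

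The highest junction shares among the 237 circles with a mean of 100 or more reads and a share in every library belonged to DNAJB6, a co-chaperone (97.3%, 98.4% and 99.3%), and to RNF138, a ubiquitin ligase (98.6%, 97.4% and 98.4%). SMARCA5 had 97.7%, 97.1% and 98.7%, FAM13B 97.8%, 97.2% and 98.3%, ZDBF2 97.6%, 96.8% and 98.5%, and FBXW7, a substrate receptor of an SCF ubiquitin ligase, 98.1%, 95.9% and 98.7%. The FAM13B circle listed only 87, 71 and 49 non-junction reads. Replicate 2 was the lowest library for all of these except DNAJB6, by at most a few percentage points. The HIPK3 circle, left out because it has no share in replicate 2, had 99.01% and 98.62% in the other libraries.

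The lowest shares belonged to FKBP8, a mitochondrial member of the FK506-binding family, with 25.5%, 28.5% and 38.9% in the circle of exons 3 to 4 and 41.0%, 34.3% and 44.9% in that of exons 5 to 6. The exon 13 to 14 circle of DLG1 had 31.9%, 32% and 31.5%, a smaller spread than in FKBP8. The exon 2 to 3 circle of MAN1A2 had 34.7%, 29.9% and 36.5%. MPP6 (39.2%, 24.2% and 53.0%) and MORC3, an ATPase of nuclear bodies (39.1%, 45.1% and 38.6%), were the others.

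Several of these low circles lay inside larger ones of the same host. The MAN1A2 circles that share exon 2 had mean junction shares of 33.7% to exon 3, 52% to exon 4, 86.1% to exon 5, 87.4% to exon 6 and 42.3% to exon 8. In DLG1 the circles from exon 13 had 31.8% to exon 14, 75.3% to exon 15, 46.7% to exon 16 and 60.4% to exon 18, so the share did not rise with each added exon. Over 438 groups with a shared first base, the longest circle had a higher junction share than the median of the other circles in 282. Over 390 groups with a shared last base, the longest circle was above that median in 252.

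The spread between replicates exceeded counting error for abundant circles, a few of which were far apart. The chi-square per degree of freedom between pairs of libraries was 1.93, 1.76 and 2.22, where 1 would be counting error alone. The common biological CV estimated with edgeR over 4440 circRNAs was 15.0%. Among the 238 circRNAs with a mean of 100 or more reads the median CV was 9.98%, with 120 below 10% and 10 above 30%. At 5 to under 10 reads the median CV was 40.5% beside a CV of 39.2% expected from counting, against 7.89% and 4.81% at 300 reads or more. A median of SDs from 3 libraries tends to lie below the true SD, whereas the counting value is the full expected CV. How near rare circles come to counting is therefore not settled by these pairs. The MITD1 and SMO circles, named after their values were seen, had CVs of 1.72% and 1.88%.

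The most variable abundant circle was that of BACH1, a transcriptional repressor of haem oxygenase, with 80, 206 and 35 reads, or 354, 1494 and 212 CPM. FAT1, an atypical cadherin, followed with 174, 389 and 63 reads, or 771, 2820 and 381 CPM. BARD1, the partner of BRCA1, had 187, 193 and 97 reads, and the metalloprotease ADAMTS6 131, 130 and 69. SCMH1, a Polycomb protein, had 131, 150 and 104 reads, NUSAP1, a spindle protein, 132, 116 and 72, and ANKRD12 221, 156 and 93. In CPM all of these were highest in replicate 2, and all but SCMH1 were lowest in replicate 3.

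HIPK3, a homeodomain-interacting kinase whose exon 2 circle is among the best studied, was the exception, with 1153, 0 and 537 reads. The other libraries would give about 596 reads in replicate 2. A circle of the same acceptor that ends within exon 2 had 0, 6 and 0 reads, and listed 972 non-junction reads in replicate 2. The circle of exons 2 to 3 had 10, 6 and 5 reads. In the other libraries the main circle listed 23 and 15 non-junction reads. Zeros of this kind were not limited to HIPK3. In 84 cases (33, 21 and 30 in the 3 libraries) a circle was listed at 0 where the other libraries gave 10 or more expected reads, and the next were SEC11A with 98, 56 and 0 reads and HP1BP3 with 0, 81 and 0. Whether such zeros are missing calls was not tested.

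Of the 8 most variable circles 5 had a spliced length over 1000 bases: BACH1 with 1836, FAT1 with 3283, HIPK3 with 1099, BARD1 with 1204 and ADAMTS6 with 1352. Among all 29 circles with a GENCODE spliced length over 1000 bases, a mean of 50 or more reads and no zero, 25 were highest in replicate 2 and 27 lowest in replicate 3. By the deposited length there were 35, of which 28 were highest in replicate 2 and 29 lowest in replicate 3. Among the 571 shorter ones by GENCODE length the numbers were 160 and 182. The 29 long circles include those of BACH1, FAT1, BARD1 and ADAMTS6, named above for their spread, so their counts repeat that choice in part. The median log2 ratio of a library to the mean of the others was 0.67 in replicate 2 and -0.76 in replicate 3 for the long circles, and -0.08 in replicate 1. Among the 8826 exonic circles with a transcript, those over 1000 bases took 5.51%, 6.92% and 3.97% of the reads in the 3 libraries. The log2 ratio of replicate 3 to replicate 2 had a Spearman coefficient of -0.32 with spliced length and 0.27 with GC content over these 600 circles, which share libraries and depth. The same library that was high in long circles had the lowest junction shares, and whether these go together was not tested.

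**Figure D5:**
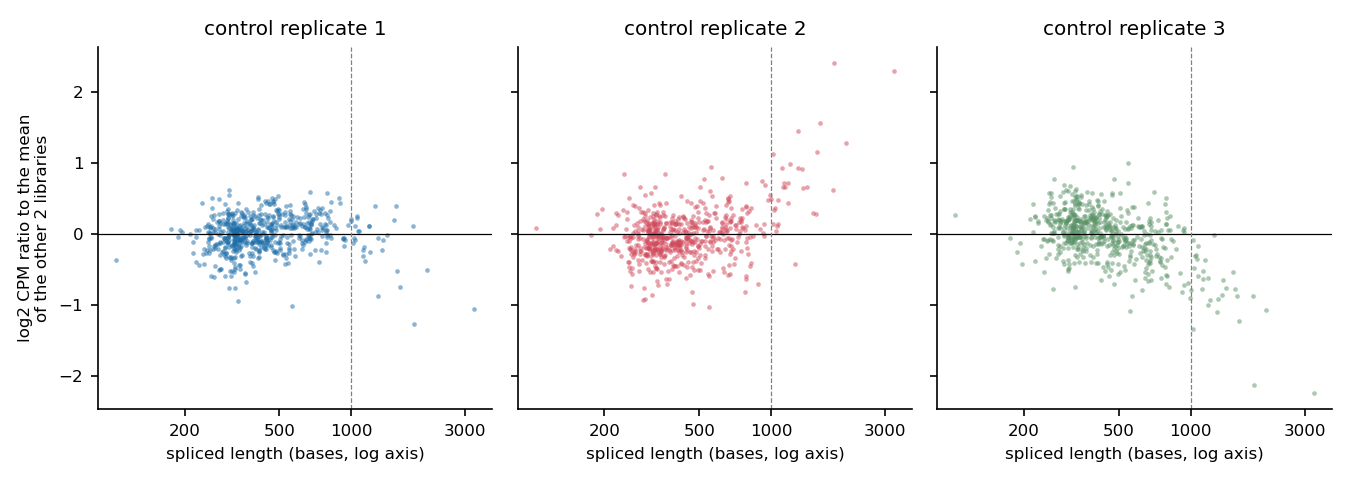
log2 ratio of each library's CPM to the mean of the other 2 against GENCODE spliced length (bases, log axis), for 600 circRNAs with a mean of 50 or more reads. The dashed line marks 1000 bases, above which replicate 2 has a median of 0.67 and replicate 3 of -0.76.

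The label of bronchial epithelium could not be checked from circles. Of all protein-coding genes 18.2% were hosts. Of 20 airway epithelial marker genes none was a host, and neither was any of 7 secretory, 8 immune or 7 endothelial markers. Mesenchymal markers gave 4 hosts of 17, or 23.5%, near the share of all genes: ZEB1, with 80, 43 and 61 reads, BNC2 with 35, 27 and 37, ZEB2 with 10, 7 and 8, and FBN1 with 6, 6 and 9. Their summed share ran from 0.0580% to 0.0695%. The ciliated list had 1 host of 8, SPAG16, with 232, 161 and 160 reads, and the alveolar list 1 of 7, ABCA3, with 5, 4 and 9. Presence of a circle depends on the gene's exons and introns as well as on its transcription, so these counts do not measure expression of the markers.

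Functional groups were covered to different degrees, with the same 18.2% of all protein-coding genes for comparison. These lists were drawn up with circle-forming genes in mind, so their shares are descriptions. Of 67 chromatin modifiers and remodellers 60 were hosts with 3.50% ± 0.0665 of reads, led by CDYL, SMARCA5 and SETD3 (553, 326 and 414 reads). SETD3 is counted on this list although it is a histidine methyltransferase of actin. Of 69 ubiquitin ligases and deubiquitinases 59 were hosts, led by RNF13 (783, 482 and 510 reads), MIB1 (708, 416 and 537) and FBXW7 (553, 378 and 408). Nuclear pore and transport genes were hosts in 39 of 46, led by XPO1, TNPO3 and NUP54. Cell cycle genes were hosts in 58 of 72, led by CCNB1, which encodes cyclin B1 (603, 312 and 474 reads), AURKA (491, 274 and 363) and MAD1L1 (237, 144 and 226).

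Splicing factors and RNA helicases were hosts in 45 of 63 with 2.50% ± 0.0592 of reads, led by RSRC1, RBM39 and RBM33. Centrosome and cilium genes were hosts in 29 of 50, led by CEP192 (766, 504 and 433 reads), CEP70 (411, 216 and 280) and CEP128 (315, 173 and 214). The CEP192 share was 0.339%, 0.365% and 0.262%, lowest in replicate 3, and its leading circle has a spliced length of 1054 bases. Focal adhesion and matrix genes were hosts in 29 of 57, led by PLOD2, PTK2 and DOCK1. Of 50 often studied circRNA hosts 42 were present, with 9.72% ± 0.242 of reads.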

How the data were processed

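The members of the control group, the gene lists and the summaries were chosen with earlier results of these data known. The authors deposited back-splice junction read counts per circRNA and library, and TPM values that equal the count over the library total, scaled to 1000000, with no length term. Positions, classes, hosts and non-junction reads came from the deposited annotation table and were joined by circRNA identifier. Spliced lengths were summed over GENCODE exons, unless the deposited length is named. The submitters' processing notes name hg19, Bowtie2 2.2.8, Bowtie and DESeq 1.10.1 without their roles, with the circle caller not given in the sources used here. Of the exonic circles 97.9% of first and 98.0% of last positions lay on exon bounds of GENCODE 29, so positions were read as GRCh38. The deposited table of the cadmium comparison was not used, and 0 columns of per-sample values were without a sample.

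Shares, CPM, means and SDs were computed with Python 3.11.15 and pandas 2.3.3, and the biological CV with edgeR 4.0.16 (TMM sizes, filterByExpr), a step tested on simulated data (a simulated CV of 20% came back as 18.0%). The edgeR filter needs reads in all 3 libraries, so circles listed at 0 do not enter it. No group was compared and no p-value was computed. Depth of 137919 to 225769 junction reads limits rare circles, and PCR duplicates were not marked by molecular identifiers. Exon numbers follow the GENCODE transcript that holds both ends on exon bounds. Splice site bases and genomic flanks were not analysed here.

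The named items were the 20 leading hosts, the 12 leading circRNAs, the 8 hosts with most circles, the 5 most and 5 least even hosts, the 6 highest and 6 lowest junction shares, the 8 most variable circRNAs, up to 5 hosts with a changing leader and up to 3 hosts per list. Alternatives were pooled or ranked reads, other minimums, TMM or TPM scaling and leaving out each replicate.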

Additional observations from a re-analysis of the deposited data

How the results depend on the processing

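No paired analysis was possible because only the control group was used. Of 89 alternative values for 20 results, 65 stayed within a tolerance around the main value. The tolerance was 1 SD between libraries, a binomial interval, or 1.5 times for counts. For chi-square it was the SD of the library pairs, and for the biological CV the SD of its own leave-one-out values. Some alternatives were bound to stay: deposited TPM equals CPM, and the edgeR filter already drops circles listed at 0. Leaving out 1 of 3 libraries moves the mean of a fixed class by less than 1 SD. The number 65 is therefore no measure of robustness. Leaving out each replicate gave 5.51% to 5.77% for the 10, 20.8% to 21.5% for the 100 and 55.3% to 55.8% for the 1000 most abundant circRNAs, 1.18% to 1.26% for MAN1A2 and 11.7% to 12% for the 20 leading hosts, while ranking within each library gave 55.8% for the 1000. The number above 0 in all 3 libraries became 4716 and 2580 with 5 and 10 or more reads required in each. The median share of a leading circle was 58.7% with no minimum and 57.2% with 100 reads, and 55.2% to 56.4% on leaving out each replicate; the share of hosts with the same leader was 65.7% and 86.0%. The pooled junction share, 37.8% as a mean of the libraries, became 23.6% with junction reads counted once and 54.4% at a mean of 10 or more reads. The biological CV was 23.1% with no filter, 17.8% at a mean of 20 or more, and 14% to 18.3% on leaving out each replicate. The mean chi-square per degree of freedom, 1.97, became 2.92 at 50 or more reads and 1.70 without zeros. As shares of circRNAs, exonic circles were 95.4%, exon 2 starts 27.8%, single exons 3.34%, 2 or 3 exons 55.1%, lengths over 200 to 400 bases 46.2% and over 1000 bases 7.24%. On leaving out each replicate the same classes took 96.3%, 38.0% to 38.4%, 5.15% to 5.34%, 58.6% to 60.4%, 49.2% to 51.3% and 4.74% to 6.22% of reads.

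Some alternatives were chosen after seeing the data. With only circles whose GENCODE length was the deposited one, single exons took 5.66% of reads. At a mean of 20 or more reads, 66.7% of circles over 1000 bases were highest in replicate 2, against 86.2%. The causes of these shifts were not tested.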
